A study of Mus musculus with 6 samples.

Results

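The 38 genes described here drive or mark DNA replication and mitosis, and were taken by name from the 23420 gene symbols of the count table. All 38 were listed and all 38 were abundant enough to test. They fall into 10 genes of replication, 20 genes of G2 and mitosis, and 8 genes that act around the G1/S decision, namely the D and E cyclins, E2f1 and the inhibitor genes Cdkn1a and Cdkn1b. The libraries came from endothelial cells of whole E12.5 mouse embryos (embryonic day 12.5). The embryos carried Csf1r-iCre, in which the Csf1r promoter drives Cre recombinase, and RosatdTomato, a reporter that turns on red tdTomato after recombination. PECAM1+ cells without CD45, CD11b or KIT on their surface were sorted from 3 embryos into tdTom+ cells, which carry the label of past or present Cre activity, and tdTom- cells, which carry the same alleles but no label. Each fraction had 3 libraries, numbered 1 to 3. The labels do not say which library came from which embryo, so the p-values measure only the spread between these libraries, which may be technical.

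A dividing cell loads the MCM helicase onto replication origins in G1, then copies its DNA in S phase with the help of the sliding clamp PCNA and a raised supply of nucleotides, and later assembles the spindle and separates its chromosomes. E2F factors drive the S phase genes. In G2 the MuvB complex with B-MYB and FOXM1 drives the mitotic genes, so that transcripts of both sets are abundant in cycling cells and scarce in resting ones. Vessels of the mid-gestation embryo are still growing, and their endothelium holds many cycling cells.

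The promoters were searched for short sequence elements already known from cell cycle genes. How often these occur is a description here and not an independent test of the choice of genes. Of the 38 genes, 29 matched the RefSeq promoter table (GRCm38.p6, the mm10 assembly), with 32 promoters in all because 3 genes had 2 start sites. The 250 bases before each start were searched on both strands for CCAAT, the box bound by NF-Y, for TTTGAA or TTTAAA, forms of the cell cycle genes homology region (CHR) bound by MuvB complexes, and for TTTNNCGC, a form of the E2F site. Overlapping matches were all counted. These RefSeq starts can lie downstream of another annotated start: against the GENCODE vM21 gene spans, 5 of the 32 windows lie wholly inside the gene (both of Mcm7, that of E2f1, and 1 each of Ccnd3 and Cdkn1a) and 11 partly, those of Cdk1 and Cenpe among them. CCAAT was present in 14 of 15 promoters of mitotic genes (93.3%), in 9 of 10 of replication genes (90%) and in 2 of 7 of the G1 and inhibitor genes (28.6%), against 33.8% of all 32851 promoters in the table. A CHR form was present in 12 of 15 mitotic promoters (80%), 2 of 10 replication promoters (20%) and 2 of 7 G1 and inhibitor promoters (28.6%), against 25.2% of all promoters. Within 40 bases of the start, a window chosen after the matches were seen, a CHR form lay in 8 of 15 mitotic promoters, 0 of 10 replication promoters and 2 of 7 G1 and inhibitor promoters (Ccne1 and Cdkn1b), against 4.49% of all. The E2F form was present in 3 of 10 replication promoters, 1 of 15 mitotic ones and 0 of 7 G1 and inhibitor ones, against 4.28% of all. The replication promoters were those of Mcm5 and Mcm6 and 1 of the 2 of Mcm7, and the mitotic one was that of Cdk1. A match is a description of these letters and not a bound site. The promoters below show the motifs in capitals, 5′ to 3′ on the strand of the gene and ending at the base before the start. Cdk1 and Kif11 stand for mitotic promoters with CCAAT and CHR letters near the start, and Mki67, Cenpe, Mcm6 and Mcm7 are the replication and mitosis genes whose libraries did not overlap between the fractions. Mcm7 has a second start site in the table, which is not shown.

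Cdk1 (chr10:69352913-69353162, minus strand): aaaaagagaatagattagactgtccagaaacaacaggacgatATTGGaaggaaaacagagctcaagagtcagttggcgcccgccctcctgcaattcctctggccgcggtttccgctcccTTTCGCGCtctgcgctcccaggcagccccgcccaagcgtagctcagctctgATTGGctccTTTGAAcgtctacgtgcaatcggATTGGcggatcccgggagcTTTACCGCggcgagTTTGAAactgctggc
Kif11 (chr19:37376132-37376381, plus strand): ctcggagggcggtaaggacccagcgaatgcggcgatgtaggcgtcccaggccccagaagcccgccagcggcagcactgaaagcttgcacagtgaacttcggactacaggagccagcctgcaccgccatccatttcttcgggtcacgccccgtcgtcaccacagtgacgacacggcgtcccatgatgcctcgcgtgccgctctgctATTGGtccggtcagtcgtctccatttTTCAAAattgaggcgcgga
Mki67 (chr7:135716380-135716629, minus strand): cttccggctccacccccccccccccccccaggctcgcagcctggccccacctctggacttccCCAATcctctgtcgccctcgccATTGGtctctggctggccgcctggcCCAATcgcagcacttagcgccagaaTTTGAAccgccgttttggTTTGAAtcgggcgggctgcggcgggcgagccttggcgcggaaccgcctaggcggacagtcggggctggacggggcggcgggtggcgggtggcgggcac
Cenpe (chr3:135212313-135212562, plus strand): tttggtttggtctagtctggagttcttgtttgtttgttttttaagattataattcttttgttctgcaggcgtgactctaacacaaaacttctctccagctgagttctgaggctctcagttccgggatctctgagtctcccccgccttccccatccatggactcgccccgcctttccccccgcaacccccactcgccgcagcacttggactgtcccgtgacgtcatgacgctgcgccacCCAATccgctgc
Mcm6 (chr1:128359706-128359955, minus strand): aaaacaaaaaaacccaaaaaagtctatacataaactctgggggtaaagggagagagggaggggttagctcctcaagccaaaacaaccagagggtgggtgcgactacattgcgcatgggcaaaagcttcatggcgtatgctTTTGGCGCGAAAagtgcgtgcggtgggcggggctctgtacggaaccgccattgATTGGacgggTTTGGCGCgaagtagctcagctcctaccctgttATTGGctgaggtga
Mcm7 (chr5:138171884-138172133, minus strand): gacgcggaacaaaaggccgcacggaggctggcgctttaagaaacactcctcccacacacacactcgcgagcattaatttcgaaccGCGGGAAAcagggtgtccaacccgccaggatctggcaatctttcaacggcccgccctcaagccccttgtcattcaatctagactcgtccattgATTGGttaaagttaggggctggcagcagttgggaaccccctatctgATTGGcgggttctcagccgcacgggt

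In Cdk1 a TTTGAA ends 9 bases before the start and in Kif11 the same letters, on the other strand, end 13 bases before it. The promoter of Mcm6 holds 3 matches of the E2F form, of which a pair overlap on opposite strands, and no CHR form. Cenpe holds a single CCAAT and neither of the other motifs.

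The replication and mitosis genes were expressed at nearly the same level in tdTom+ and tdTom- endothelial cells. None of the 38 passed the test in either direction (quasi-likelihood test of edgeR, p adjusted by Benjamini-Hochberg over 13142 genes and under 0.05, lowest adjusted p = 0.304), where 1.58% of all genes tested passed. An unadjusted p under 0.05 was reached by 2 members, Mki67 and Cenpe, against 10.7% of all genes tested. With DESeq2 and with limma-voom the number that passed was also 0, and the number at an unadjusted p under 0.05 was 2. The authors' deposited table lists 0 of the 38 at an adjusted p under 0.05, with a lowest adjusted p of 0.257. Over all genes it calls 211 higher and 291 lower in tdTom+, the same numbers as the DESeq2 fit here. It is therefore not a separate check. Fold changes ran from -0.26 for Foxm1 to 0.30 for Cdkn1b on the log2 scale (tdTom+ over tdTom-), and 19 were above 0 and 19 below. The median over the members was -0.00097 on the log2 scale, beside -0.00026 over all genes tested.

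The libraries were deep enough to bound the differences. The lowest count of any member in any library was 41, for Cdkn1b, and library totals ran from 8919887 to 11767956 counts. The 95% interval of the fold change lay within 1.5-fold in either direction for 36 of the 38 members, including all 10 replication and all 20 mitosis genes. It did so for 48.0% of all genes tested, whose median standard error (SE) of the log2 fold change was 0.188, beside 0.098 for the members. In a list of endothelial markers it did so for 12 of 12 genes, so narrow intervals were not particular to the members. The exceptions among the members were Ccnd1, with a fold change interval of 0.32 to 2.51 in this fit without a replicate block, and Cdkn1b, with one of 0.69 to 2.2. A p that misses the threshold does not show equal levels, but a difference of 1.5-fold lies outside the intervals of the other 36.

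**Figure D1:**
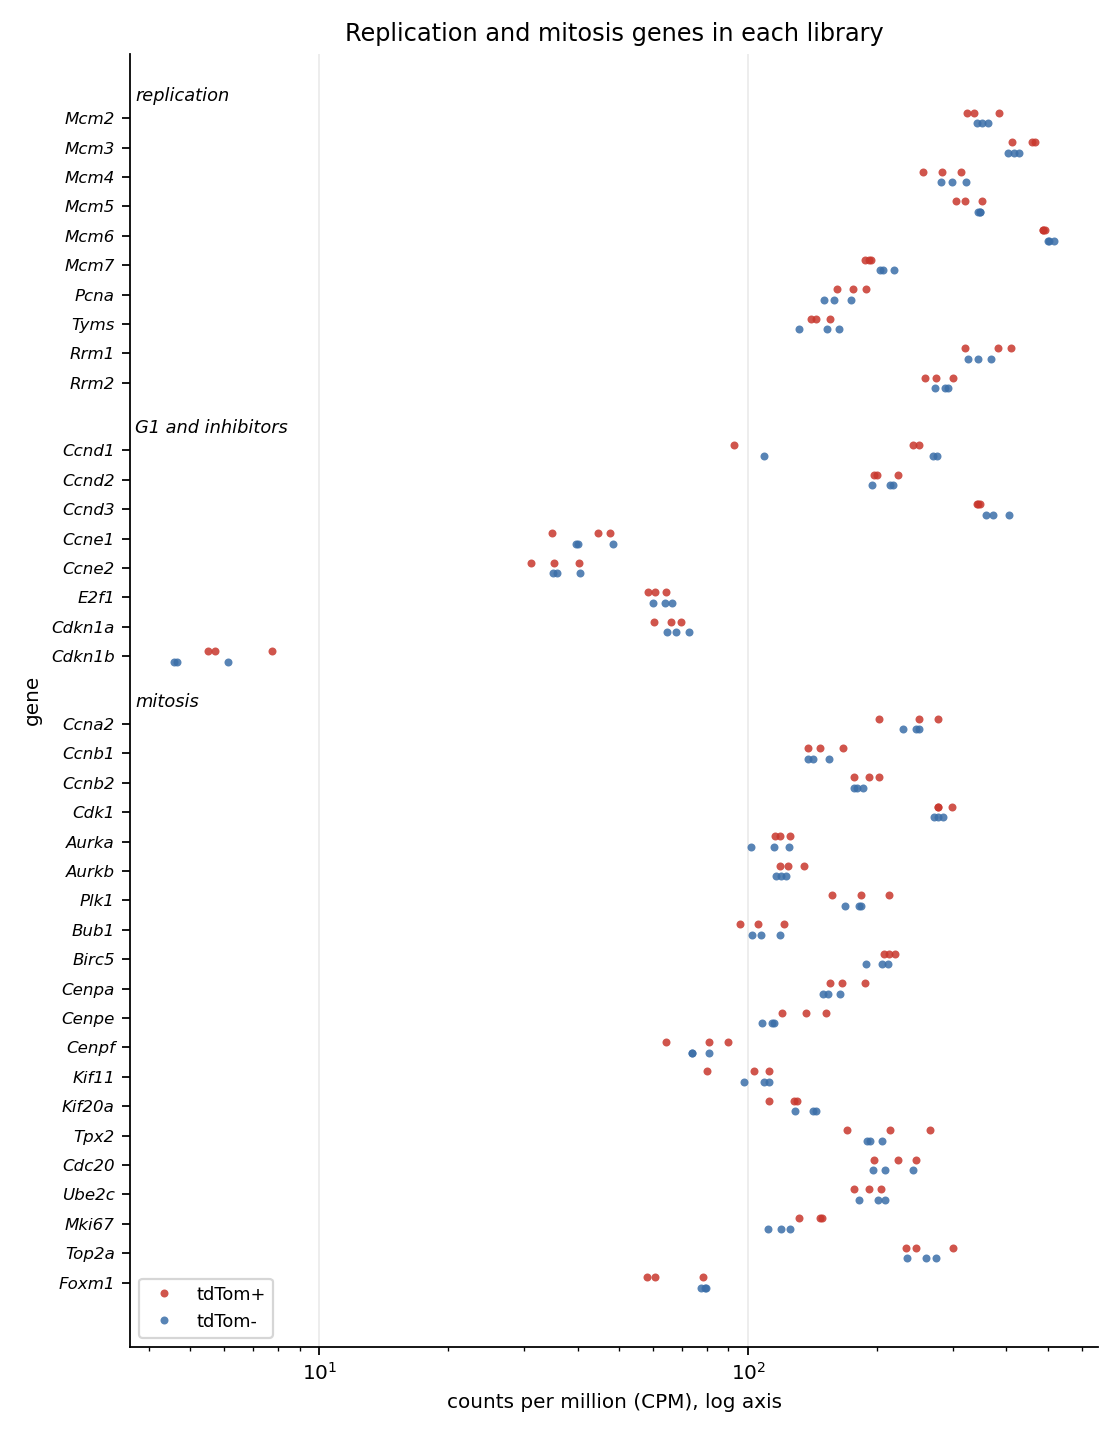
CPM (log axis) of the 38 genes in each of the 3 tdTom+ libraries (red, upper row of each gene) and 3 tdTom- libraries (blue, lower row), ordered by phase. The points of both fractions lie side by side for most genes, and Ccnd1 spreads in both, with 92.7 and 109 CPM in the libraries numbered 1.

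**Figure D2:**
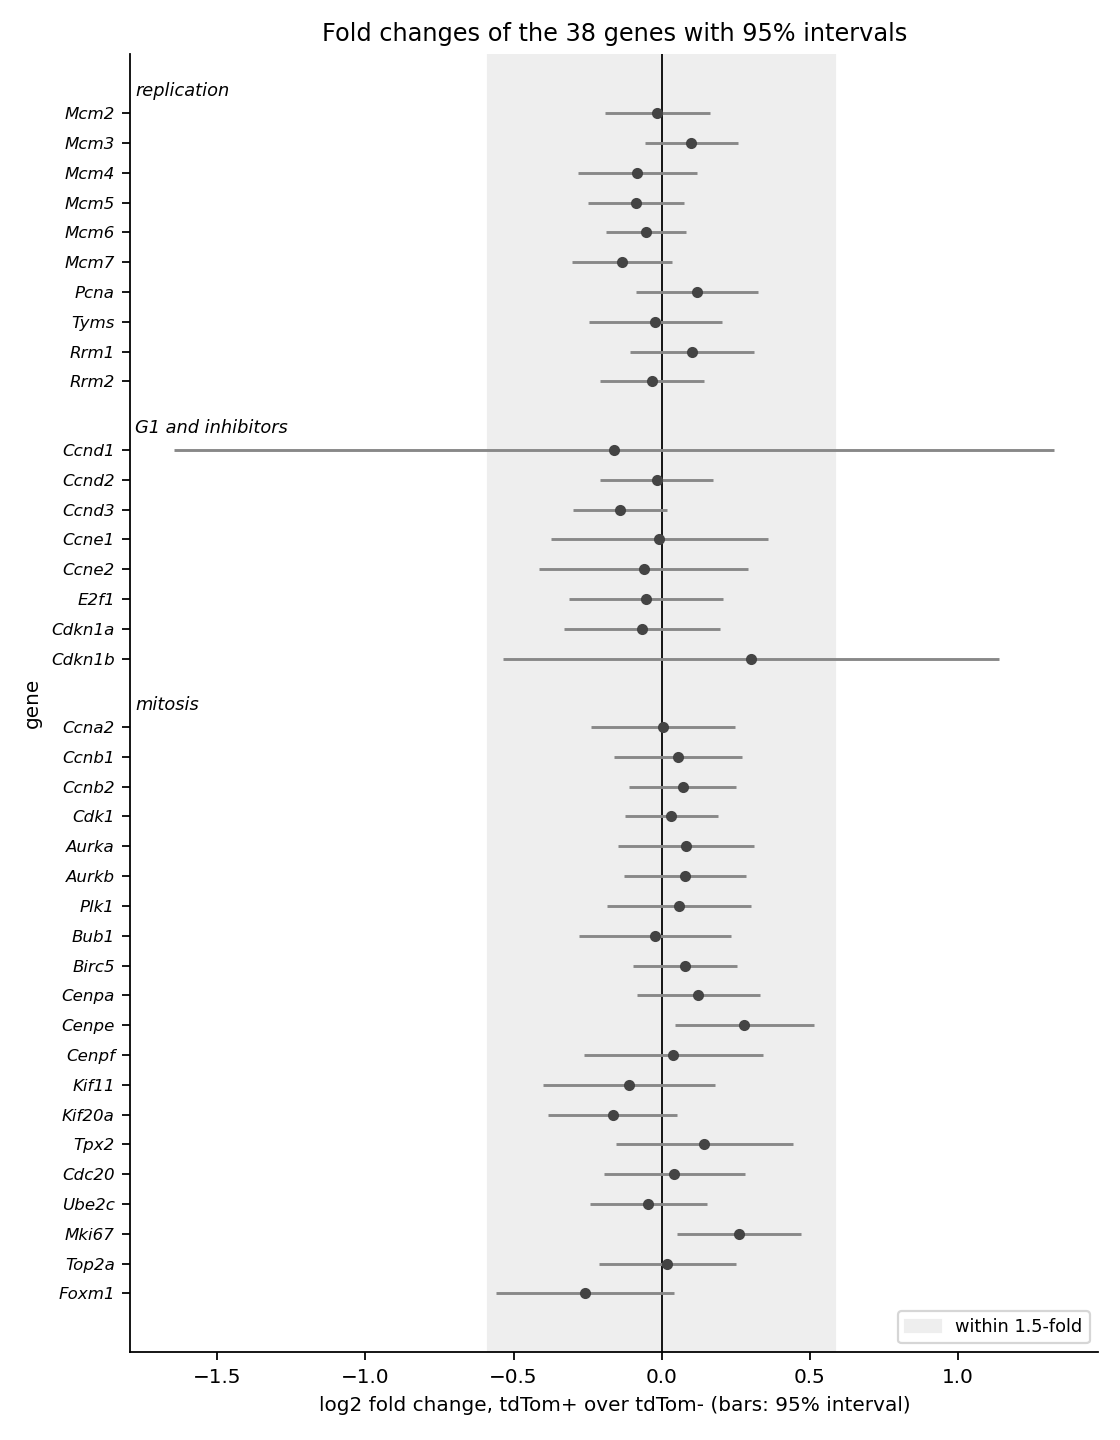
Log2 fold change of each gene, tdTom+ over tdTom-, from the edgeR fit, with its 95% interval as a bar and the range within 1.5-fold shaded. The bars of 36 genes lie inside the shaded range, and those of Ccnd1 and Cdkn1b reach beyond it.

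Levels are given as CPM, the counts scaled to the library total. Summed over the 10 replication genes, the tdTom+ libraries had 3206, 2989 and 2971 CPM and the tdTom- libraries 3003, 3099 and 3113 CPM. The groups overlapped, with means of 3055 ± 131 and 3072 ± 59.8 CPM (SD, n = 3 each). Summed over the 20 mitosis genes, the tdTom+ libraries had 3519, 3206 and 3244 CPM and the tdTom- libraries 3264, 3163 and 3229 CPM. Their means of 3323 ± 171 and 3219 ± 51.1 CPM (SD, n = 3 each) stood at a ratio of 1.03. The highest mitotic sum was that of tdTom+ replicate 1, which also had the highest replication sum, so that its mitosis to replication ratio of 1.098 was close to the 1.073 and 1.092 of the other tdTom+ libraries. That ratio was 1.087, 1.021 and 1.037 in the tdTom- libraries, and the fractions overlapped. In bulk samples a smaller share of cycling cells and less RNA per cycling cell cannot be told apart.

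**Figure D3:**
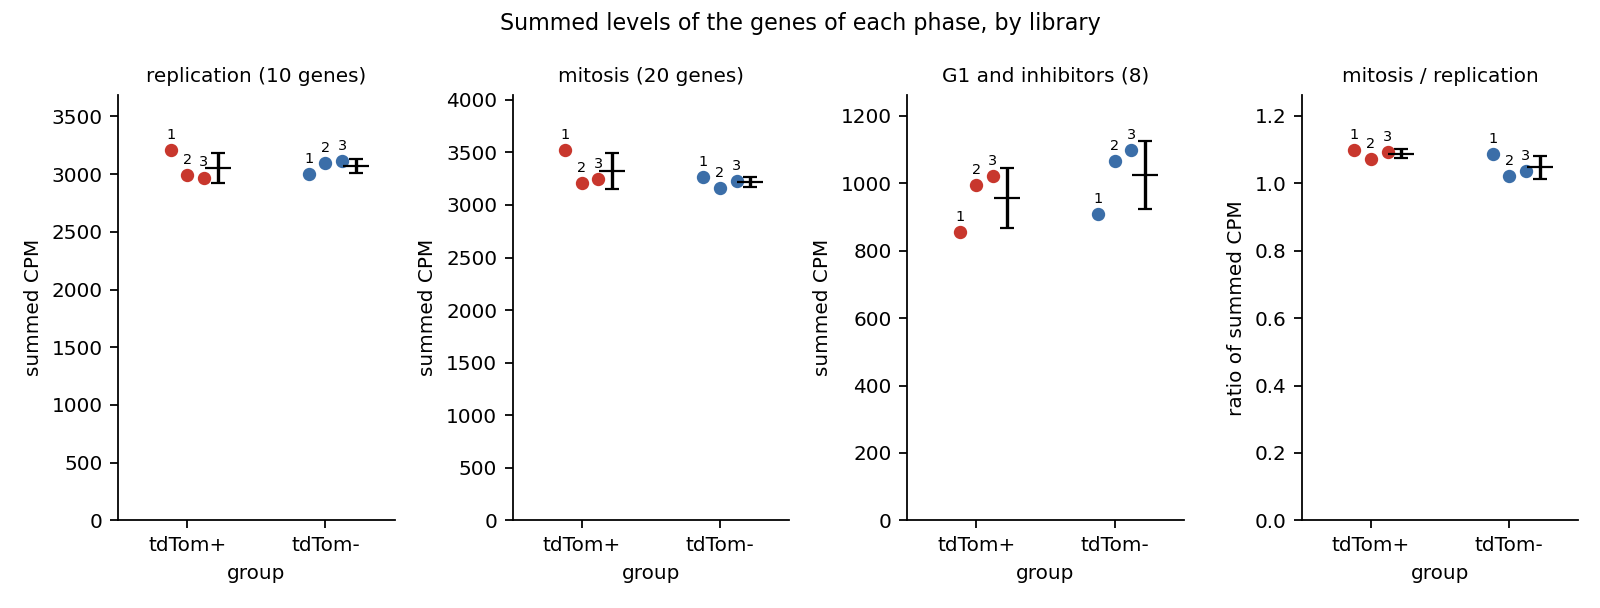
Summed CPM of the replication, mitosis, and G1 and inhibitor genes, and the ratio of the mitosis to the replication sum, in each library (points, numbered by replicate), with the mean and SD of each fraction as bars. The replication sums lie between 2971 and 3206 CPM in all 6 libraries, and the libraries numbered 1 are lowest in the G1 and inhibitor sum of both fractions.

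None of the genes of the replicative helicase passed. Mcm2 to Mcm7 encode the subunits of the MCM ring that unwinds DNA at the fork, and their log2 fold changes ran from -0.13 to 0.10. Mcm6 had 486, 487 and 493 CPM in tdTom+ libraries, against 504, 499.6 and 518 CPM in tdTom- libraries. Every tdTom+ library was below every tdTom- library, but the means of 489 ± 3.97 and 507 ± 9.78 CPM (SD, n = 3 each) differed by a log2 fold change of -0.05 ± 0.06 (SE), at an adjusted p of 0.85 in edgeR. Mcm7 had 191, 188 and 193 CPM in tdTom+ libraries, against 206, 219 and 203 CPM in tdTom- libraries. These groups were also apart, with a log2 fold change of -0.13 ± 0.08 (SE), at an adjusted p of 0.606 in edgeR. The exons of Mcm7 overlap those of Ap4m1 and Cops6 on the other strand, and the library kit does not mark strand, so reads of the overlap cannot be told apart. Mcm3 had 466, 413 and 459 CPM in tdTom+ libraries, against 404, 417 and 428 CPM in tdTom- libraries, with the groups overlapping and a log2 fold change of 0.10 ± 0.07 (SE), at an adjusted p of 0.705 in edgeR. Mcm2, Mcm4 and Mcm5 had log2 fold changes of -0.01, -0.08 and -0.09, with overlapping groups in each. Mcm2 had 384, 324 and 337 CPM in tdTom+ libraries, against 341, 351 and 362 CPM in tdTom- libraries. The 6 MCM genes summed to 2194, 1988 and 2072 CPM in tdTom+ libraries, against 2102, 2153 and 2140 CPM in tdTom- libraries, so that tdTom+ replicate 1 was the highest and tdTom+ replicate 2 the lowest of the 6 libraries.

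Genes of the fork and of nucleotide supply did not pass either. Pcna, the sliding clamp, had 161, 188 and 176 CPM in tdTom+ libraries, against 150.2, 159 and 174 CPM in tdTom- libraries, a log2 fold change of 0.12 ± 0.09 (SE), at an adjusted p of 0.74 in edgeR. Rrm1 and Rrm2, the large and small subunits of ribonucleotide reductase, had log2 fold changes of 0.10 and -0.03, and Tyms, which makes thymidylate, had one of -0.02. Rrm1 had 409.9, 384 and 321 CPM in tdTom+ libraries, against 326, 369 and 343 CPM in tdTom- libraries, and its tdTom+ libraries lay on both sides of the tdTom- ones. Rrm2 had 301, 274 and 259 CPM in tdTom+ libraries, against 272, 288 and 293 CPM in tdTom- libraries. The fractions overlapped in all 4 of these genes.

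The G1 cyclins held the member that varied most between libraries. Ccnd1 encodes cyclin D1, a partner of CDK4 and CDK6 that couples growth signals to the cell cycle (chromosome 7, 144929931 to 144939925, mm10). It had 92.7, 243 and 251 CPM in tdTom+ libraries 1 to 3, against 109, 276 and 270.1 CPM in tdTom- libraries 1 to 3. The library numbered 1 was the low one in both fractions, and the highest library stood 2.97-fold above the lowest. The log2 fold change between the fractions was -0.16 ± 0.56 (SE), at an adjusted p of 0.963 in edgeR, and its sign turned when tdTom+ replicate 1 was left out, with 0.18, or tdTom- replicate 2 or 3, with 0.045 and 0.018. In 15 of the 13142 genes tested, each of the other 4 libraries had over 2 times the CPM of both libraries numbered 1, and Ccnd1 was the only member among them. The same count was 20 for the libraries numbered 2 and 41 for those numbered 3, with no member in either. After Ccnd1, the genes with the highest mean CPM among these 15, not scaled to length, were Ttyh2, which had 14.4, 95.9 and 82.6 CPM in tdTom+ and 26.7, 104 and 116 CPM in tdTom- libraries, and Wdfy1, which had 32.5, 77.0 and 73.3 CPM in tdTom+ and 28.5, 79.8 and 73.4 CPM in tdTom- libraries. This pattern was looked for after the values of Ccnd1 were seen. Exons of Ccnd1 overlap those of LTO1 on the other strand.

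Ccnd3, another D-type cyclin, had 348, 342 and 343 CPM in tdTom+ libraries, against 373, 359 and 407 CPM in tdTom- libraries. Each tdTom+ library was below each tdTom- library, with a log2 fold change of -0.14 ± 0.07 (SE), at an adjusted p of 0.542 in edgeR. Ccnd2 differed less, with 207 ± 14.8 CPM for tdTom+ cells and 209 ± 12.6 CPM for tdTom- cells (SD, n = 3 each). The E cyclins, which activate CDK2 at the G1/S transition, had overlapping groups and log2 fold changes of -0.01 for Ccne1 and -0.06 for Ccne2. E2f1, an activator of S phase genes, had 61.2 ± 3.02 CPM for tdTom+ cells and 63.4 ± 3.10 CPM for tdTom- cells (SD, n = 3 each). Summed over all 8 G1 and inhibitor genes, the tdTom+ libraries had 856, 994 and 1022 CPM and the tdTom- libraries 909, 1066 and 1098 CPM, which overlap. Without Ccnd1, a set made after its values were seen, the tdTom+ libraries had 764, 752 and 771 CPM and the tdTom- libraries 799, 790.2 and 827 CPM. The means of that set were 762 and 806 CPM, of which Ccnd3 alone held 344 and 380 CPM, so the gap is largely that of Ccnd3. Exons of Ccnd3 overlap those of Bysl, and exons of Ccne2 those of Ints8, in each case on the other strand.

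Transcripts of the inhibitors did not pass either. Cdkn1a encodes p21, a target of p53, and had 60.2, 66.2 and 69.6 CPM in tdTom+ libraries, against 67.8, 64.8 and 72.8 CPM in tdTom- libraries, a log2 fold change of -0.07 ± 0.12 (SE), at an adjusted p of 0.914 in edgeR. Cdkn1b, which encodes p27, had 5.70, 5.49 and 7.76 CPM in tdTom+ and 6.11, 4.66 and 4.59 CPM in tdTom- libraries. Its groups overlapped, and its log2 fold change was 0.30 ± 0.38 (SE), at an adjusted p of 0.872 in edgeR. Per kilobase of annotated exon, Cdkn1b averaged 1.39 CPM in tdTom+ cells, against 1.12 CPM in tdTom- cells, while Cdkn1a averaged 18.4 and 19.3 CPM in the same order of fractions, and Cdkn1b was the lowest of the 38 genes on this scale. Per kilobase the most abundant members were Ccnb2, with 124 CPM in tdTom+ cells, against 118 CPM in tdTom- cells, Mcm3 with 119 and 111 CPM, and Cdc20 with 119 and 115 CPM.

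Of the mitotic genes, 15 had a log2 fold change above 0 and 5 below, with a median of 0.049. Cdk1, the mitotic kinase, had 277, 299 and 278 CPM in tdTom+ libraries, against 272, 278 and 285 CPM in tdTom- libraries, with overlapping groups and a log2 fold change of 0.03 ± 0.07 (SE), at an adjusted p of 0.931 in edgeR. Its cyclin partners Ccna2, Ccnb1 and Ccnb2 had log2 fold changes of 0.01, 0.06 and 0.07. Exons of Ccna2 overlap those of Exosc9 on the other strand. The kinases of mitotic entry and the spindle, Aurka, Aurkb and Plk1, had log2 fold changes of 0.08, 0.08 and 0.06, the checkpoint kinase gene Bub1 -0.02, and Birc5, which encodes the Aurora B partner survivin, 0.08. The fractions overlapped in every one of these 9 genes. Plk1 had 183, 157 and 214 CPM in tdTom+ libraries, against 182, 168 and 183 CPM in tdTom- libraries, and both the highest and the lowest of its 6 values came from tdTom+ libraries. Ccna2 showed the same order of extremes, with 277, 201 and 251 CPM in tdTom+ libraries, against 251, 229.9 and 247 CPM in tdTom- libraries. Aurka and Aurkb ran from 116 to 135 CPM in tdTom+ libraries, against 101 to 124 CPM in tdTom- libraries.

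Mki67 and Cenpe were the only members with every tdTom+ library above every tdTom- library. Mki67 encodes Ki-67, the nuclear protein used to mark cycling cells (chromosome 7, 135689784 to 135716361, mm10). It had 147, 132 and 148 CPM in tdTom+ libraries, against 119.5, 125 and 111 CPM in tdTom- libraries. The means were 142 ± 9.31 and 119 ± 6.82 CPM (SD, n = 3 each), a 1.20-fold difference with a 95% interval of 1.04 to 1.39 and a log2 fold change of 0.26 ± 0.09 (SE). It did not pass (edgeR adjusted p = 0.304). Cenpe encodes CENP-E, the kinetochore motor that aligns chromosomes (chromosome 3, 135212537 to 135273611, mm10). It had 152, 120.2 and 136 CPM in tdTom+ libraries, against 108, 115 and 114 CPM in tdTom- libraries, a 1.21-fold difference with a 95% interval of 1.03 to 1.43. It did not pass (edgeR adjusted p = 0.338). Across all genes tested, the groups were apart with tdTom+ higher in 7.88% and with tdTom+ lower in 9.35%, beside 2 and 3 of the 38 members, the 3 being Mcm6, Mcm7 and Ccnd3. These shares are close to those of all genes.

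The other centromere genes overlapped between the fractions. Cenpa, the histone H3 variant of centromeres, had 156, 188 and 165 CPM in tdTom+ libraries, against 164, 149 and 153 CPM in tdTom- libraries, and Cenpf, a kinetochore protein gene, had a log2 fold change of 0.04. Tpx2, which activates Aurora A on the spindle, had 265, 215 and 170.0 CPM in tdTom+ libraries, against 189.6, 206 and 192 CPM in tdTom- libraries. The tdTom+ libraries spread on both sides of the tdTom- ones, and the log2 fold change of 0.14 ± 0.14 (SE) was as large as its error, at an adjusted p of 0.792 in edgeR. The motor genes Kif11, whose product separates spindle poles, and Kif20a, whose product acts in cytokinesis, had log2 fold changes of -0.11 and -0.16. Kif11 had 112, 103 and 80.3 CPM in tdTom+ libraries, against 112, 109 and 97.8 CPM in tdTom- libraries. Kif20a had 129.9, 112 and 128 CPM in tdTom+ libraries, against 144, 129 and 142 CPM in tdTom- libraries, and exons of Kif20a overlap those of Cdc23 on the other strand.

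The genes of mitotic exit, Cdc20 and Ube2c, which encode an activator and the ubiquitin-conjugating enzyme of the anaphase-promoting complex, had log2 fold changes of 0.04 and -0.04. Exons of Ube2c overlap those of Tnnc2 on the other strand. Cdc20 had 224, 246 and 196 CPM in tdTom+ libraries, against 209, 195 and 243 CPM in tdTom- libraries, with each fraction spread over nearly the same range. Top2a, which untangles sister chromosomes, had 300.3, 233 and 247 CPM in tdTom+ and 260.2, 275 and 235 CPM in tdTom- libraries, a log2 fold change of 0.02. Foxm1, a transcription factor gene of the G2 and mitosis programme, had 78.7, 60.8 and 58.2 CPM in tdTom+ libraries, against 79.4, 79.7 and 77.5 CPM in tdTom- libraries. Among the tdTom+ libraries replicates 2 and 3 were the low ones and replicate 1 lay within the tdTom- range, and the log2 fold change was -0.26 ± 0.14 (SE), at an adjusted p of 0.558 in edgeR.

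**Figure D4:**
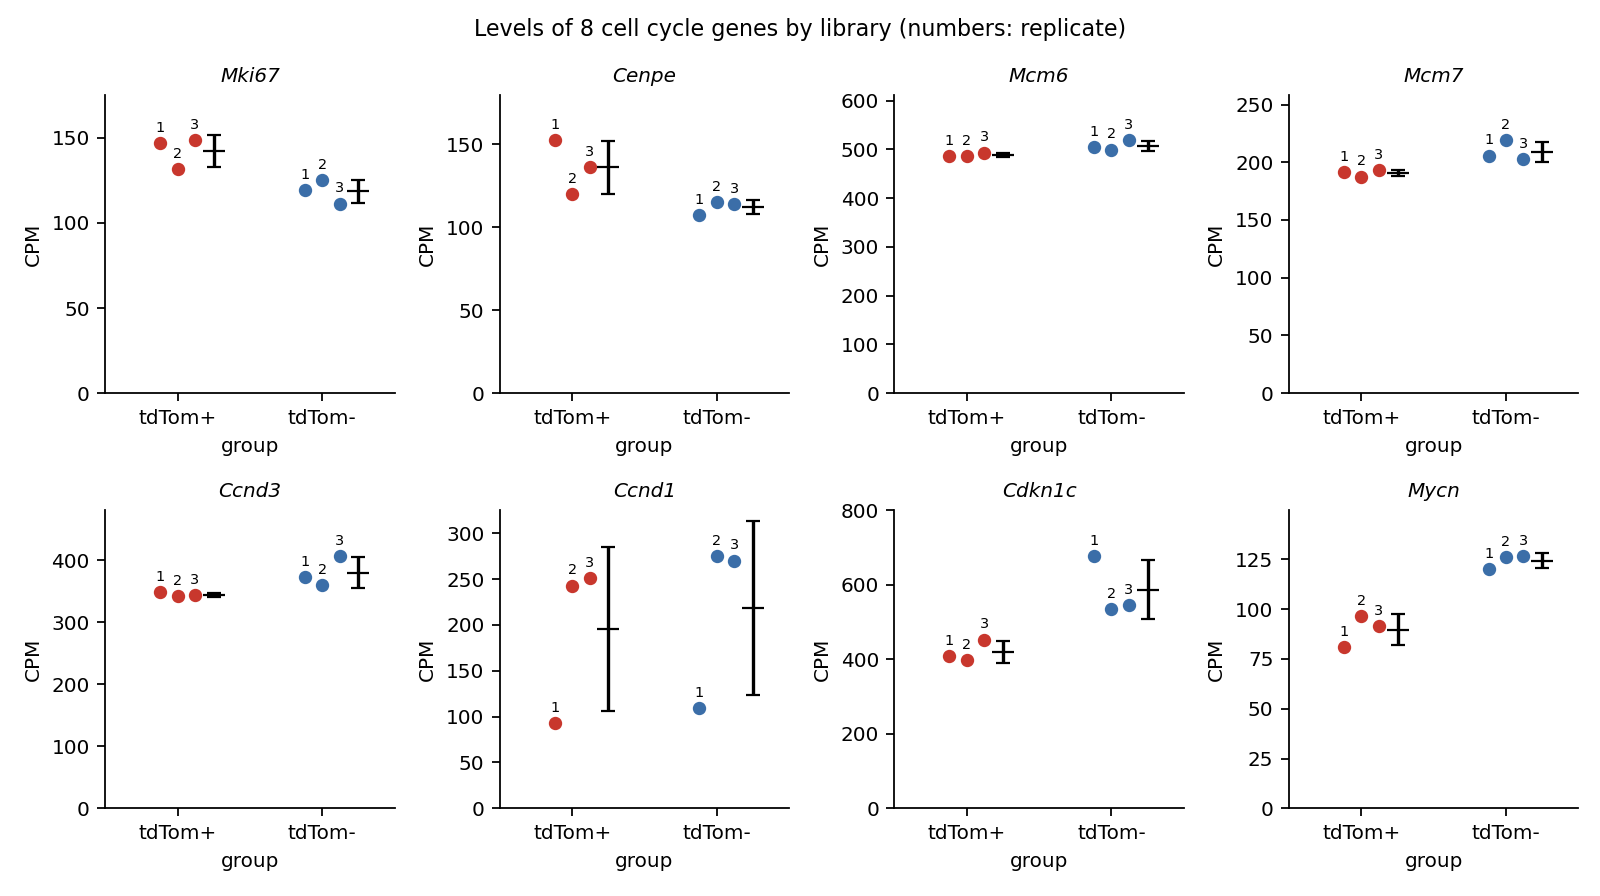
CPM of 8 cell cycle genes in each library (points, numbered by replicate), with the mean and SD of each fraction as bars. Mki67 and Cenpe lie higher and Mcm6, Mcm7, Ccnd3, Cdkn1c and Mycn lower in every tdTom+ library, and Ccnd1 is lowest in the library numbered 1 of both fractions, at 92.7 and 109 CPM.

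The wider replication and mitosis lists also held no gene that passed, and most of their intervals were narrow. The interval lay within 1.5-fold for 51 of 59 further replication genes and 56 of 67 further mitosis genes, against 18 of 34 in the wider G1 list and 9 of 24 p53 target genes, so that a gene of the G1 or p53 list that missed the threshold was often not bounded to 1.5-fold. Of the 59 replication genes, 0 passed in either direction, with a median log2 fold change of 0.003 and 2 genes at an unadjusted p under 0.05. These were Rfc4, a subunit of the clamp loader, with a log2 fold change of 0.39 ± 0.13, and Mcm10, which acts in helicase activation, with -0.34 ± 0.15 (SE), at adjusted p of 0.241 and 0.432 in edgeR. Of the 67 mitosis genes 0 passed, with a median of 0.041 and again 2 genes at an unadjusted p under 0.05. They were Espl1, the gene of separase, with -0.60 ± 0.22, and Smc4, a condensin subunit gene, with 0.19 ± 0.08 (SE), at adjusted p of 0.319 and 0.391 in edgeR. Of the 24 p53 target genes 0 passed, with 2 at an unadjusted p under 0.05, and Ccng1 and Trp53inp1 came nearest, with log2 fold changes of 0.54 ± 0.19 and -0.46 ± 0.19 (SE), at adjusted p of 0.275 and 0.4 in edgeR.

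The wider G1 list held CDKs, inhibitors, E2F and pocket protein genes, and also Mycn. Of its 36 genes 34 were tested, 0 rose and 1 fell, beside 1.58% of all genes tested passing in either direction. An unadjusted p under 0.05 was reached by 6 of the 34, beside 10.7% of all genes tested. The gene that fell was Cdkn1c, which encodes the CDK inhibitor p57 and is an imprinted gene expressed from the maternal allele (chromosome 7, 143458339 to 143461050, mm10). It had 408, 397 and 453 CPM in tdTom+ libraries, against 678, 535 and 546 CPM in tdTom- libraries. Each tdTom+ library was below each tdTom- library, and the log2 fold change was -0.48 ± 0.10 (SE), at an adjusted p of 0.0351 in edgeR. Leaving out any single library other than tdTom+ replicate 3 ended the call, with adjusted p from 0.0585 to 0.152, while the log2 fold change stayed between -0.55 and -0.36 in every alternative. The other alternatives kept the call, with adjusted p from 0.000114 to 0.0387. Mycn, a MYC family transcription factor gene named here after its values were seen, had 81.0, 96.3 and 91.6 CPM in tdTom+ libraries, against 119.9, 126 and 127 CPM in tdTom- libraries. Its difference of -0.47 ± 0.10 on the log2 scale (SE) did not pass in edgeR (adjusted p = 0.0535) and passed in 4 alternatives, DESeq2 among them (adjusted p = 0.00352, with a range over all alternatives of 0.00352 to 0.206). The median over this list was -0.004.

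**Figure D5:**
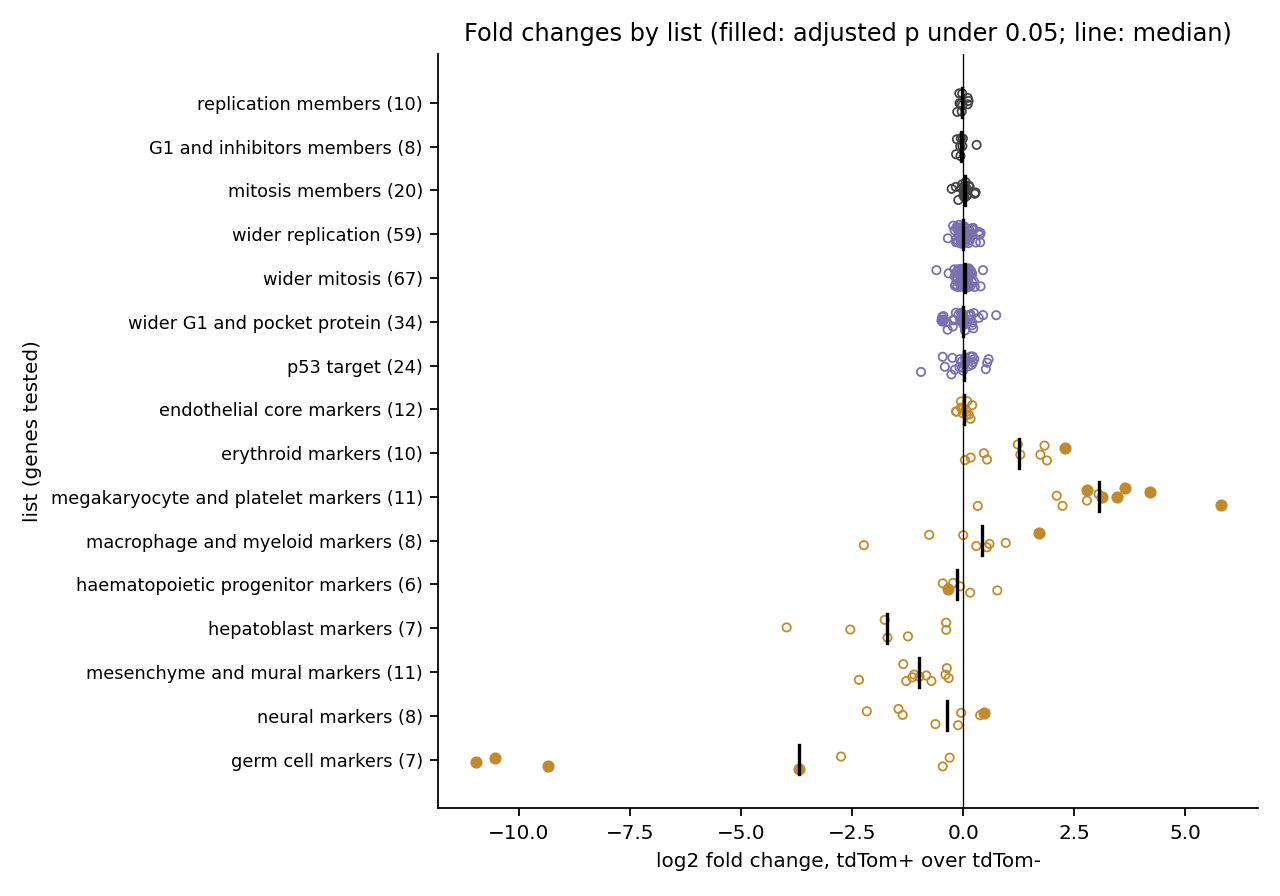
Log2 fold changes, tdTom+ over tdTom-, of the members by phase (grey), of the wider cell cycle lists and the p53 target list (purple) and of cell type marker lists (ochre), with the number of genes tested in brackets, filled points for genes at an adjusted p under 0.05 and a line at each median. The replication and mitosis members lie between -0.26 and 0.28, while megakaryocyte, erythroid and germ cell markers spread widely. The 3 points below -9 are genes with 0 counts in all tdTom+ libraries, whose fitted values depend on the prior count.

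Some genes from the marker lists of other cells passed the test between the fractions, in the megakaryocyte, erythroid, macrophage, progenitor, neural and germ cell lists. Of the endothelial markers 12 of 12 were tested and 0 passed, with sums of 8659 to 9197 CPM in tdTom+ and 8753 to 8867 CPM in tdTom- libraries. Of these, Pecam1, the sorting marker, had a log2 fold change of -0.16 ± 0.07 and the cadherin gene Cdh5 one of 0.16 ± 0.08 (SE). Megakaryocyte and platelet markers summed to 506 to 780.3 CPM in tdTom+ and 203 to 269.7 CPM in tdTom- libraries, with 6 of 11 tested rising, among them Itga2b, Itgb3 and Tubb1 in edgeR's test. Vwf, which did not pass, made up most of the tdTom- sums. It had 208 to 285 CPM in tdTom+ and 167 to 220 CPM in tdTom- libraries, so the sums understate the difference in the other markers. Itga2b, the integrin alpha IIb gene, had 96.3, 142 and 71.5 CPM in tdTom+ libraries, against 14.7, 14.5 and 15.8 CPM in tdTom- libraries, a log2 fold change of 2.78 ± 0.23 (SE), at an adjusted p of 0.000292 in edgeR. Erythroid markers summed to 222 to 296 CPM in tdTom+ and 150.0 to 256 CPM in tdTom- libraries, with Klf1 rising among 10 tested (log2 fold change 2.29 ± 0.45, SE) and Hba-a1 and Hba-a2 listed at 0 in all libraries. Macrophage and myeloid markers summed to 92.0 to 151 CPM in tdTom+ and 47.2 to 59.9 CPM in tdTom- libraries, with Mrc1 rising among 8 tested (log2 fold change 1.70 ± 0.23, SE). Mrc1 made up most of the tdTom+ sums. Without it the other 11 markers summed to 23.4 to 41.1 CPM in tdTom+ and 21.3 to 28.1 CPM in tdTom- libraries, which overlap, and Ptprc, which encodes CD45, was at 0 in 2 of the 3 tdTom+ libraries and in 1 of the 3 tdTom- libraries. Haematopoietic progenitor markers summed to 1132 to 1285 CPM in tdTom+ and 1470 to 1596 CPM in tdTom- libraries, with Cd34 falling among 6 tested (log2 fold change -0.35 ± 0.06, SE) and Flt3 at 0 in all libraries. Most of these sums came from Cd34, with 976 to 1097 CPM in tdTom+ and 1260 to 1355 CPM in tdTom- libraries. The fall of Cd34 does not by itself show fewer progenitor cells.

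Germ cell markers summed to 124 to 151 CPM in tdTom+ and 227 to 273 CPM in tdTom- libraries. Most of these sums came from Kit and Prdm1, which other cells express too. Without both, the other 6 markers summed to 1.75 to 2.90 CPM in tdTom+ and 49.5 to 93.7 CPM in tdTom- libraries. Dazl, Dppa3 and Pou5f1 among them had 0 counts in every tdTom+ library, and 4 of 7 tested fell. Hepatoblast markers summed to 159 to 170.3 CPM in tdTom+ and 206 to 449 CPM in tdTom- libraries, mesenchyme and mural markers to 179 to 676 CPM in tdTom+ and 482 to 1138 CPM in tdTom- libraries, and none of either list passed. Neural markers summed to 425 to 448 CPM in tdTom+ and 419 to 431 CPM in tdTom- libraries, with Gap43 rising among 8 tested (log2 fold change 0.47 ± 0.09, SE), while the median log2 fold change of the list was -0.37. Most of these sums came from Nes, with 205 to 222 CPM over both fractions, and from Gap43, with 121 to 183 CPM. Of the 8 tested, 6 had a log2 fold change below 0 and 2 above, so the near-equal sums do not describe the list. The part of these cells in the level of the replication and mitosis genes was not tested.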

How the data were processed

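Libraries were made with SMART-seq v4 amplification and Nextera XT, which does not mark strand, per the labels' protocols. The authors deposited 1 table of read counts per gene symbol and library, as whole numbers without normalization. The submitters' processing notes list the mm10 build and the tools featureCounts 1.4.6, STAR 2.5.2b, DESeq2, Trimmomatic 0.36.4 and Picard 2.7.1.1, without saying what each did. Per the file headers, the deposited table also gives a p-value and a log2 fold change for each gene from the authors' own comparison, which run as tdTom- over tdTom+. Its 6 normalized per-library columns and 2 group means were not used.

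The counts of all genes were fitted in edgeR 4.0.16 (R 4.3.3) by the robust quasi-likelihood F-test, two-sided and with no block, after TMM scaling and filterByExpr (minimum count 10), with adjustment by Benjamini-Hochberg over 13142 genes. An SE is the log2 fold change over the root of its F, and gives the 95% intervals with the degrees of freedom of the test. CPM values use TMM-scaled totals of the genes tested. The reads carry no molecular identifiers, so amplification error stands only in the spread between libraries. No libraries of a group agreed to within counting noise (chi-square per gene 7.85 to 19.0). Exon lengths and positions come from GENCODE vM21, and 7 list genes were matched under older symbols from the RefSeq table. The fit was tested on simulated data. These were drawn as independent libraries with the fit's own dispersion trend, so they cannot check it against spread shared between libraries or particular to a gene.

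The members and lists were chosen with earlier results of these data known. Named genes are all members, the genes of each wider list that passed (up to 4, or the 2 with the smallest p where none passed), Pecam1 and Cdh5, and up to 3 passing markers per cell type list. Alternatives were DESeq2 1.42.0, its size factors within edgeR, limma-voom (limma 3.58.1), no minimum count or one of 50, a replicate block, and leaving out each library.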

Additional observations from a re-analysis of the deposited data

How the results depend on the processing

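The number of members called was 0 in both directions under all 12 alternatives, with a lowest adjusted p of 0.155 (Cenpe without tdTom+ replicate 2, where the range for Cenpe was 0.155 to 0.774). With each library left out in turn that number also stayed at 0, and the median log2 fold change ran from -0.071 to -0.00011 for replication, from 0.018 to 0.072 for mitosis and from -0.080 to -0.0093 for G1 and inhibitor genes. The calls over all genes were fewest without tdTom- replicate 3, with 37 higher and 25 lower of 13514 tested. They were most numerous with DESeq2, with 211 and 291 of 15135. At such shares a count of 0 can arise in any set as small as the members. It does not by itself set the members apart from other genes. Of the 456 pairs of member and alternative, 36 had a log2 fold change of the other sign, none of them past the threshold, and 20 members kept their sign throughout. In the wider G1 list the number that fell was 2 with DESeq2, with no count filter, under the stricter filter and in the fit with the replicate block, where Mycn passed too (adjusted p = 0.00352, 0.0388, 0.0419 and 0.0463), and from 0 to 1 with each library left out. The other wider lists stayed at 0 in both directions.

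The labels give the same replicate numbers to both fractions and do not tie a number to an embryo. The deviations of same-numbered libraries from their group means had r = 0.105, 0.089 and 0.16 for numbers 1, 2 and 3, and all 6 libraries correlated best with their own number, which is a hint from the data and not the design. With the replicate block the members called stayed at 0, and the median log2 fold changes were -0.026 for replication, 0.045 for mitosis and -0.058 for G1 and inhibitor genes. The log2 fold change of Ccnd1 was -0.17 (edgeR adjusted p = 0.482), and its unadjusted p in edgeR was 0.066 with the block, against 0.789 without it. The calls over all genes were 128 higher and 167 lower with the block, against 101 and 107 without it.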
